A study of Mus musculus with 14 samples.

Results

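A set of 10 genes of the collecting duct were followed in 14 mouse kidneys: the water channel genes Aqp2, Aqp3 and Aqp4, the vasopressin receptor gene Avpr2, the epithelial sodium channel (ENaC) subunit genes Scnn1a, Scnn1b and Scnn1g, and the intercalated cell genes Atp6v1b1, Slc4a1 and Slc26a4. They were chosen by name for their roles, with earlier results of these data known. All 10 symbols were found among the 56980 gene identifiers counted. The libraries were poly(A) RNA-seq from whole kidneys of 18-week-old female CD-1 mice, an outbred stock of wild-type genotype (WT). Mice were born at term and nondiabetic (T-ND, n = 4), term and diabetic (T-D, n = 4), preterm and nondiabetic (PT-ND, n = 3) or preterm and diabetic (PT-D, n = 3). Diabetes was induced with repeated low-dose streptozotocin (STZ), which destroys insulin-producing beta cells, and the nondiabetic mice are labelled as having had no treatment. The PT-ND and PT-D pups were delivered by Caesarean section shortly before term and raised by foster mothers that had been given acepromazine, whereas term pups stayed with their own mothers, so early birth, delivery and fostering cannot be told apart here. In the study some PT-D mice and no T-D mice needed a further round of STZ, and the labels do not say which. Mice of all 4 groups received cationic ferritin before tissue collection, and each library came from the whole kidney of 1 mouse.

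The collecting duct is the last tubule segment and sets how much water, sodium and acid leave in the urine. Its principal cells take up water through aquaporins and sodium through ENaC. The antidiuretic hormone vasopressin binds the V2 receptor on these cells and, through cyclic AMP, moves Aqp2 to the luminal membrane and raises its transcription, while aldosterone raises ENaC activity. Intercalated cells lie between them, the acid-secreting type A with a proton pump and the chloride/bicarbonate exchanger AE1, the base-secreting type B with the exchanger pendrin. Glucose in the urine holds water back in the tubule, and diabetic mice drink and urinate more.

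Between 16697246 and 28673176 reads were counted on genes per library. Levels are given as CPM, the reads of a gene relative to all reads on genes of its library after scaling by TMM factors, with the SD over the mice of a group. Genes counted as changed (called) when edgeR's quasi-likelihood test gave an adjusted p under 0.05, by Benjamini-Hochberg over all genes tested, with more than a 2-fold difference, that is, beyond 1 on the log2 scale in either direction. Library names end in "a" in 5 of the 14 libraries (replicates 1 and 2 of T-ND, replicate 1 of each diabetic group, and replicate 2 of PT-ND). The labels do not explain this suffix. All 12 principal cell markers and all 12 intercalated cell markers of the lists used had counts in every library, and the adrenal enzymes Cyp11b1 and Cyp11b2 were at 0 in all 14. In whole-kidney RNA, fewer cells of a type and less RNA per cell cannot be told apart.

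Per kilobase of exon, Aqp2 was the most abundant of the 9 members that could be counted, at 128 ± 41.8 CPM per kb (SD, n = 4) in T-ND kidneys. Aqp3 followed at 47.6 ± 14.2 and Scnn1a at 34.9 ± 7.44 CPM per kb, whose ranges in T-ND overlapped each other. Aqp4 (18.1 ± 5.71), Atp6v1b1 (14.3 ± 2.18), Slc26a4 (12.4 ± 3.93), Scnn1b (11.9 ± 3.26) and Scnn1g (10.5 ± 1.39) lay within a narrow band in which each overlapped its neighbour, and Slc4a1 was lowest at 6.19 ± 2.71 CPM per kb. In PT-D kidneys Aqp2 still led at 71.6 ± 29.01 CPM per kb (SD, n = 3), while Scnn1a at 33.3 ± 12.5 stood above Aqp3 at 22.9 ± 13.2, with overlapping libraries.

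**Figure D1:**
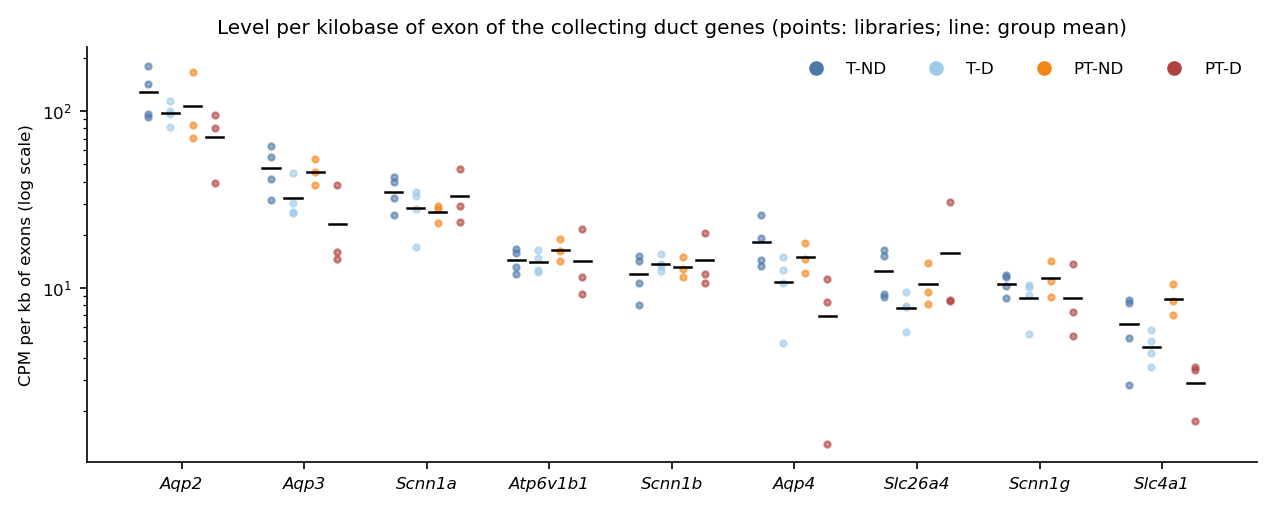
Level of 9 members per kilobase of exon on a log axis. Points are libraries, coloured by group, and short lines are group means; Aqp2 lies highest and Slc4a1 lowest in the 4 groups, and Aqp4 spreads most within PT-D.

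The water channel genes Aqp2, Aqp3 and Aqp4 had lower mean levels in diabetic than in nondiabetic kidneys in both birth groups, and their lowest means in PT-D, but none passed the test. Some of these directions turned among the libraries without the name suffix. There Aqp2 averaged 397 CPM in T-D and 379 CPM in T-ND, and Aqp4 averaged 63.9 CPM in PT-D and 61.5 CPM in T-D. Aqp2 encodes the vasopressin-regulated channel of the luminal membrane, and Aqp3 and Aqp4 the channels through which water leaves the cell on the blood side. Aqp2 is on chromosome 15 (GRCm39, 99476936 to 99485016, plus strand) and Aqp3 on chromosome 4 (41092722 to 41098183, minus strand). The 300 bases before the outermost coding transcript start of these genes, and of Slc4a1, the member that was called, are shown. Only this start was used for each gene, and any other transcript starts, which cell types may use differently, were not looked at. The Slc4a1 window lies inside its annotated gene (chromosome 11, 102239650 to 102257029). Capitals mark matches on either strand to any of 4 motifs, which were the cAMP response element half-site TGACG, the GATA site AGATAA, the forkhead site TGTTTAC and the steroid receptor half-site AGAACA. The sequences read 5′ to 3′ along each gene's strand, at chr15:99476636-99476935 for Aqp2, chr4:41098184-41098483 for Aqp3 and chr11:102256107-102256406 for Slc4a1.
Aqp2: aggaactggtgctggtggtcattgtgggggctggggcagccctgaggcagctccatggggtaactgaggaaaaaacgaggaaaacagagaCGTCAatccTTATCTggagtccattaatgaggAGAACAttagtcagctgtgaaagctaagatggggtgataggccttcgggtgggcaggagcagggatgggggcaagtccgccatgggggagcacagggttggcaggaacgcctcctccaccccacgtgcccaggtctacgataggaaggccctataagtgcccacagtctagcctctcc
Aqp3: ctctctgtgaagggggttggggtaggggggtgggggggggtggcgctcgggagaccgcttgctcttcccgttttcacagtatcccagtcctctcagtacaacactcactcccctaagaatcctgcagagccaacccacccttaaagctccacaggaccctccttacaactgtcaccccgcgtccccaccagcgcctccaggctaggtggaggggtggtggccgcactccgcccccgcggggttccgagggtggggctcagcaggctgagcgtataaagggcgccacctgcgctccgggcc
Slc4a1: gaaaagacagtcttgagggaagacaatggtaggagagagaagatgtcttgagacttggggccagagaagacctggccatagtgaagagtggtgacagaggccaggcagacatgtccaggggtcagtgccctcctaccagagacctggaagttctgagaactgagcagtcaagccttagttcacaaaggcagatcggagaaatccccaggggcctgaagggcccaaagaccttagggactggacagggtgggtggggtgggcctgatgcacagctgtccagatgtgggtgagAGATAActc

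The Aqp2 window held 3 matches, the cAMP half-site at 206 to 210 bases before the start, a GATA site at 196 to 201 and a steroid receptor half-site at 173 to 178. The Slc4a1 window held 1, a GATA site at 4 to 9 bases before the start, and the Aqp3 window held 0. Among the 21580 protein-coding genes with such a window, 18.7% held the cAMP half-site, 12.8% the GATA site, 3.61% the forkhead site and 18.7% the steroid receptor half-site, so these matches are a description of the letters and mark no proven site.

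Aqp3 was measured at 116, 100.1, 57.2 and 75.3 CPM in T-ND replicates 1 to 4 and at 82.3, 49.2, 55.2 and 48.2 CPM in T-D. It stood at 82.4, 97.7 and 70.0 CPM in PT-ND and at 69.8, 26.6 and 29.3 CPM in PT-D. Every PT-D library lay below every PT-ND library, and PT-D replicates 2 and 3 were the lowest of the 14. Aqp3 was 1.99-fold lower in PT-D vs. PT-ND (log2 fold change -0.99, SE 0.32, adjusted p = 0.0644) and 2.08-fold lower in PT-D vs. T-ND (-1.06, SE 0.36, adjusted p = 0.117), by edgeR's quasi-likelihood test. In T-D vs. T-ND the difference was -0.58 (SE 0.24, adjusted p = 0.382) and in PT-D vs. T-D it was -0.48 (SE 0.33, adjusted p = 0.408). Preterm birth without diabetes left Aqp3 at -0.06 (SE 0.23) against T-ND.

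Aqp3 levels differed between libraries with and without the name suffix, for a reason that was not tested. In each of the 4 groups every library with suffix a lay above every other library of its group for Aqp3, a pattern shown by 0.645% of the 22339 genes. Some genes would show it with the suffix placed at random, and that share was not worked out. Among the 9 libraries without it, Aqp3 was lower in PT-D than in PT-ND by a log2 fold change of -1.45 (adjusted p = 0.0124), and the gene was also called with the suffix as a covariate in the fit. The 5 libraries with the suffix, 1 in each group but T-ND, were not fitted on their own. DESeq2 called Aqp3 in PT-D vs. PT-ND (-1.01, adjusted p = 0.0133) and in PT-D vs. T-ND (-1.06, adjusted p = 0.0269). By edgeR, leaving out PT-D replicate 1, the PT-D library with suffix a, also brought Aqp3 past the threshold in PT-D vs. PT-ND (-1.58, adjusted p = 0.0018) and in PT-D vs. T-ND (-1.65, adjusted p = 0.0429). Leaving out other libraries weakened it, to as little as -0.75 in PT-D vs. PT-ND (adjusted p up to 0.185) and -0.82 in PT-D vs. T-ND (up to 0.32). In PT-D vs. T-D the values ran from -1.09 to -0.24, with no adjusted p under 0.116.

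Aqp2 was measured at 725, 570.4, 372 and 387 CPM in T-ND and at 385, 459, 328 and 403 CPM in T-D. PT-ND libraries held 284, 673 and 334 CPM and PT-D libraries 382, 157 and 321 CPM. The groups overlapped in all 5 comparisons, and libraries with the name suffix were the highest of their group in T-ND, PT-ND and PT-D, though not in T-D. Aqp2 was 1.80-fold lower in PT-D vs. T-ND (-0.85, SE 0.32, adjusted p = 0.152) and smaller in PT-D vs. PT-ND (-0.59, SE 0.36, adjusted p = 0.309), PT-D vs. T-D (-0.46, SE 0.27) and T-D vs. T-ND (-0.40, SE 0.22), none past the test. Single libraries weighed on these values, which ran from -0.85 (without PT-D replicate 1) to -0.12 (without PT-ND replicate 2) in PT-D vs. PT-ND. They ran from -0.74 (without PT-D replicate 1) to -0.16 (without PT-D replicate 2) in PT-D vs. T-D, and from -0.52 (without T-ND replicate 4) to -0.19 (without T-ND replicate 1) in T-D vs. T-ND. In PT-D vs. T-ND the range was -1.12 to -0.56.

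Aqp4 was measured at 169, 125, 94.2 and 86.9 CPM in T-ND, at 98.4, 82.3, 31.9 and 70.1 CPM in T-D, at 79.7, 118 and 95.1 CPM in PT-ND and at 8.57, 54.6 and 73.2 CPM in PT-D. All PT-D libraries lay below all T-ND and all PT-ND libraries, and PT-D replicate 1 was the lowest of the 14 by far. The log2 fold change was -1.40 in PT-D vs. T-ND (SE 0.56, adjusted p = 0.165), -1.10 in PT-D vs. PT-ND (SE 0.53, adjusted p = 0.198) and -0.77 in T-D vs. T-ND (SE 0.31, adjusted p = 0.374). Without PT-D replicate 1 these became -0.91 in PT-D vs. T-ND (adjusted p = 0.116) and -0.61 in PT-D vs. PT-ND (adjusted p = 0.0756). In mice Aqp4 is also made in the last part of the proximal tubule, and PT-D replicate 1 also had the lowest summed level of the 10 proximal tubule markers, none of them at 0. That sum ran from 8533 to 14753 CPM in PT-D, from 17915 to 27682 in PT-ND, from 14976 to 29519 in T-D and from 20727 to 29535 in T-ND. It was carried largely by 1 gene, Kap, whose mean was 2438 ± 2056 CPM in PT-D (SD, n = 3) and 14471 ± 5097 CPM in T-ND (SD, n = 4). Of the 10 markers 5 were higher and 5 lower in PT-D vs. T-ND (median log2 fold change -0.10), 5 and 5 in PT-D vs. T-D (median 0.0049) and 2 and 8 in PT-D vs. PT-ND (median -0.17), with 0 called by edgeR. In that order 3, 1 and 2 markers had an unadjusted p under 0.05, beside 5412 of 22310, 4971 of 22294 and 6493 of 22303 genes tested. The part of the proximal tubule in the Aqp4 values was not tested.

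**Figure D2:**
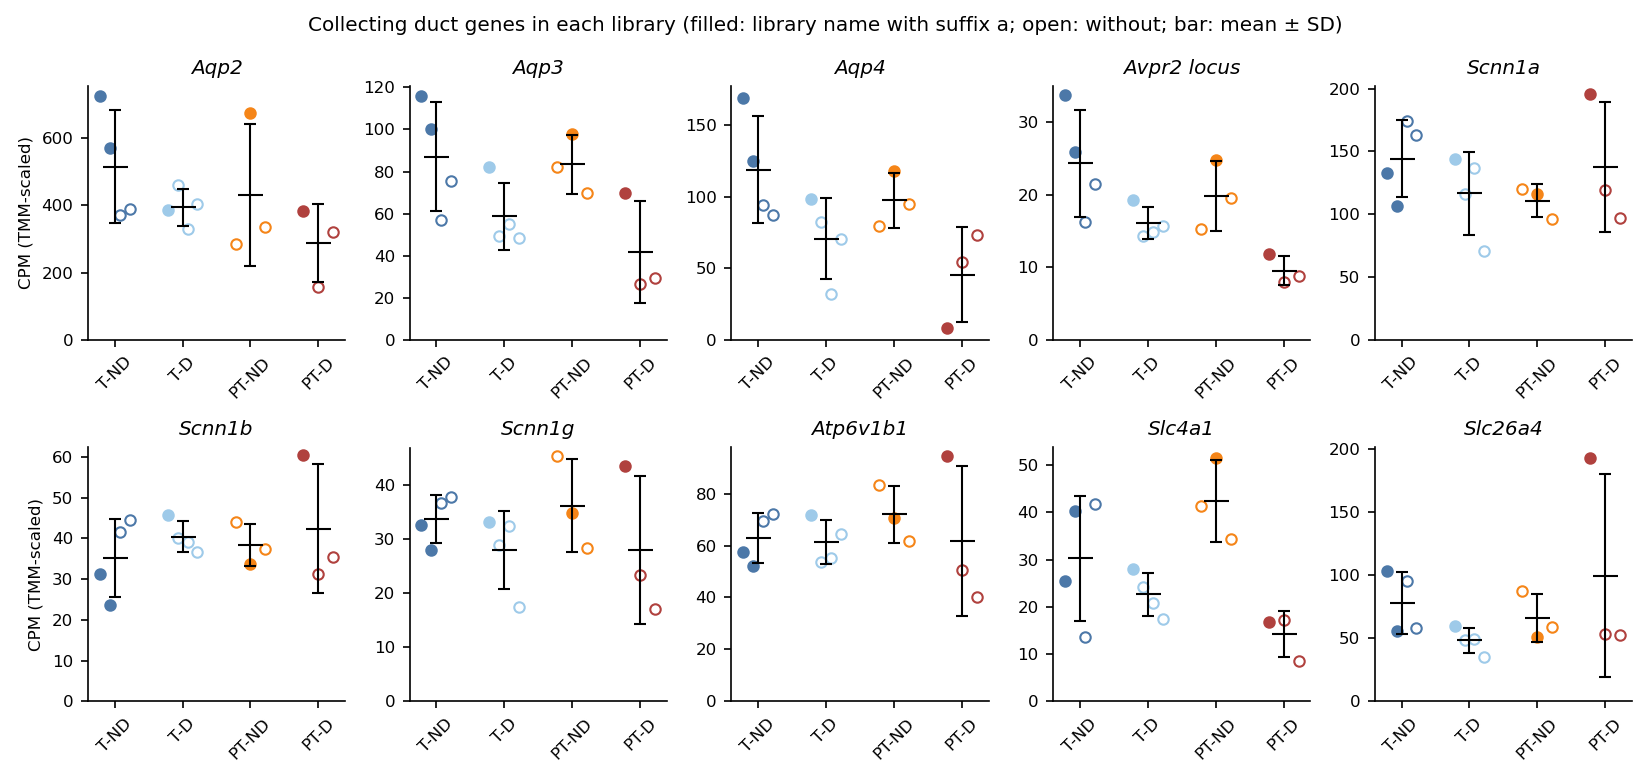
CPM of 9 members and of the Avpr2 locus in each library, by group, with the mean and SD as black bars. Filled points are libraries whose name ends in a and open points the others; the 3 PT-D libraries lie below all others for the Avpr2 locus, below all PT-ND libraries for Aqp3, Aqp4 and Slc4a1, and PT-D replicate 1 stands apart for Aqp4 and Slc26a4.

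Avpr2, which encodes the V2 receptor, could not be measured from the unstranded counts. It lies on chromosome X (72935708 to 72939108, plus strand), and 81.3% of its 2886 exon bases are also exon of Arhgap4 on the other strand, so that reads there are ambiguous without strand and are dropped. The unstranded column held 13 reads for Avpr2 over the 14 libraries, with 0 in 10 of them and at most 7 in any. The same files also count reads by strand, and the sum of both strand columns put 239 to 647 reads per library on the locus. The 7072 exon bases of Arhgap4 outside Avpr2 held 5.15 reads per kb on average, against 135 per kb on Avpr2. The locus reads still cannot be divided between the genes. The other 9 members kept at least 99.9% of their summed reads, but Gnas, which encodes the G protein that couples the V2 receptor to cyclic AMP, kept 0.598% of its summed reads in the unstranded column.

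**Figure D3:**
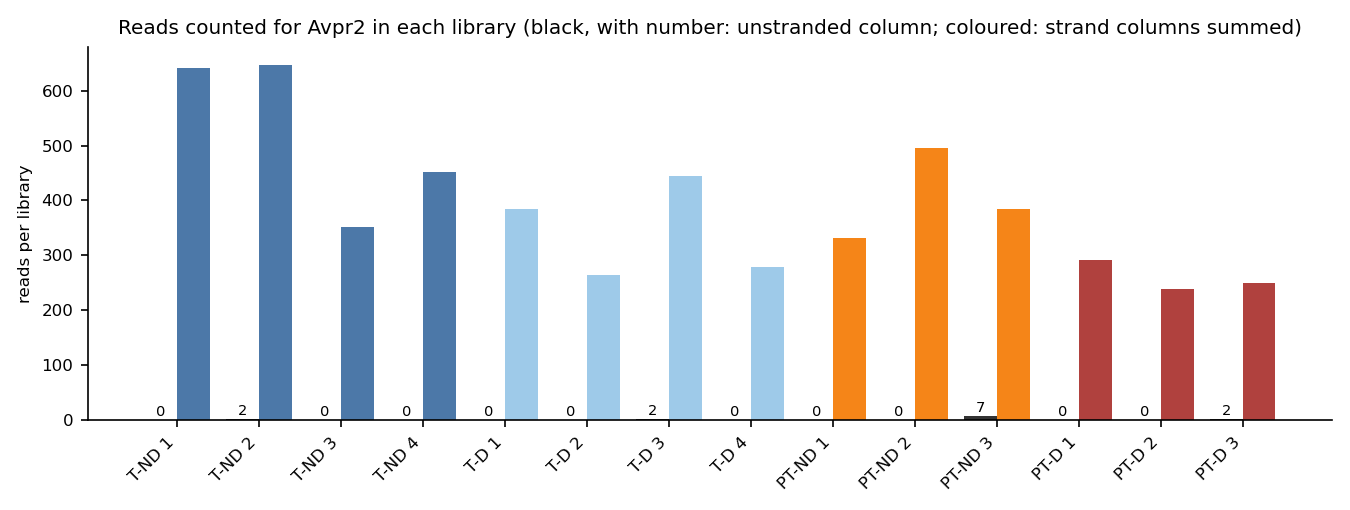
Reads counted for Avpr2 in each library. Black bars with their number are the unstranded column, with 0 to 7 reads, and coloured bars are both strand columns summed, with 239 to 647 reads.

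Reads on the Avpr2 locus came to 33.7, 25.96, 16.3 and 21.6 CPM in T-ND and to 19.3, 14.4, 14.9 and 15.7 CPM in T-D. They came to 15.2, 24.8 and 19.6 CPM in PT-ND and to 11.8, 7.93 and 8.86 CPM in PT-D. All 3 PT-D libraries were below the other 11. The share of genes with this pattern was not worked out for the summed columns. In the unstranded counts 11.2%, 10.6% and 15.8% of genes had every PT-D library below every T-ND, T-D and PT-ND library, respectively. The locus was called lower in PT-D vs. T-ND (2.58-fold, log2 fold change -1.37, SE 0.25, adjusted p = 0.0326) and in PT-D vs. PT-ND (-1.06, SE 0.22, adjusted p = 0.0163), in fits of the summed columns in which 1.42% and 4.82% of genes were called. The difference was -0.75 in PT-D vs. T-D (SE 0.21, adjusted p = 0.0967), -0.62 in T-D vs. T-ND (SE 0.21, adjusted p = 0.313) and -0.30 in PT-ND vs. T-ND (SE 0.24, adjusted p = 0.68), where 0.222%, 0.0587% and 0.0462% of genes were called. The STZ effects in preterm and term mice did not differ past the test (interaction -0.46, SE 0.33, adjusted p = 0.418; 4.19% of genes called).

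These calls were near the threshold. Leaving out each library in turn, the locus had an adjusted p of 0.008 to 0.12 in PT-D vs. T-ND and of 0.0111 to 0.0746 in PT-D vs. PT-ND, and PT-D vs. T-ND lost the call without T-ND replicates 1, 2 or 4 or PT-D replicates 2 or 3. In PT-D vs. PT-ND the call was lost without PT-ND replicates 2 or 3 or PT-D replicate 3, and without PT-D replicate 2 because the log2 fold change came to -0.94. As for Aqp3, the libraries with suffix a were the higher in all 4 groups, and among the 9 others the values were -1.18 (adjusted p = 0.0758) and -1.05 (adjusted p = 0.0557). Reads on Gnas, taken from the same summed columns, differed by -0.15 (SE 0.12) in PT-D vs. T-ND and by -0.24 (SE 0.15) in PT-D vs. PT-ND, with adjusted p = 0.465 and 0.302.

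The 3 ENaC subunit genes were not called in any comparison. Scnn1a (chromosome 6, 125297622 to 125321906, plus strand) encodes the alpha subunit, which aldosterone raises, and Scnn1b (chromosome 7, 121463946 to 121517737, plus strand) and Scnn1g (chromosome 7, 121333545 to 121367755, plus strand) the beta and gamma subunits. Scnn1a averaged 144 ± 30.8 CPM in T-ND (n = 4), 117 ± 32.9 in T-D (n = 4), 111 ± 13.1 in PT-ND (n = 3) and 138 ± 51.7 in PT-D (n = 3). In PT-D vs. T-ND the log2 fold changes were -0.07 for Scnn1a (SE 0.25), 0.26 for Scnn1b (SE 0.27) and -0.28 for Scnn1g (SE 0.28), with adjusted p of 0.887, 0.589 and 0.577. In PT-D vs. PT-ND they were 0.31 for Scnn1a (SE 0.23), 0.14 for Scnn1b (SE 0.23) and -0.37 for Scnn1g (SE 0.30), and in PT-D vs. T-D 0.24, 0.07 and 0.00. Leaving out each library, Scnn1g in PT-D vs. PT-ND ran from -0.84 (without PT-D replicate 1, adjusted p = 0.0385, below the fold needed for a call) to -0.12 (without PT-D replicate 3). PT-D replicate 1 had the highest Scnn1a and Scnn1b of all libraries, 196 and 60.5 CPM, against 120 and 31.2 CPM in replicate 2 and 97.0 and 35.4 CPM in replicate 3. The lowest Scnn1a, 70.6 CPM, was that of T-D replicate 4.

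Slc4a1, the gene of the exchanger AE1 that passes bicarbonate to the blood in type A intercalated cells and is also the main anion exchanger of red blood cells, was lower in PT-D than in the other groups. It lies on chromosome 11 (102239650 to 102257029, minus strand). It was measured at 25.4, 40.2, 13.7 and 41.8 CPM in T-ND, at 28.04, 24.3, 20.8 and 17.4 CPM in T-D, at 41.3, 51.5 and 34.3 CPM in PT-ND and at 16.7, 17.3 and 8.54 CPM in PT-D. The PT-D libraries lay below all PT-ND and all T-D libraries, and T-ND replicate 3 lay among them. Slc4a1 was called in PT-D vs. PT-ND, 2.99-fold lower (log2 fold change -1.58, SE 0.26, adjusted p = 0.00655), where 4.95% of all 22303 genes tested were called. It stayed called there in every alternative tried and without any 1 library (log2 fold change -1.75 to -1.32). In PT-D vs. T-ND it was 2.15-fold lower (-1.10, SE 0.38, adjusted p = 0.122), which passed the threshold without T-ND replicate 3 (-1.35, adjusted p = 0.0222) and with DESeq2 (-1.10, adjusted p = 0.0308). It came to as little as -0.84 there, both leaving out 1 library (adjusted p up to 0.325) and among the other settings (up to 0.34). The difference was -0.68 in PT-D vs. T-D (SE 0.26, adjusted p = 0.165) and -0.43 in T-D vs. T-ND (SE 0.30, adjusted p = 0.584), and PT-ND stood 0.49 above T-ND (SE 0.32, adjusted p = 0.595). Leaving out each library, these ran from -0.84 to -0.41, from -0.66 to -0.24 and from 0.23 to 0.66. The STZ effects in preterm and term mice were not shown to differ (interaction -1.16, SE 0.46, adjusted p = 0.128).

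The summed level of the red blood cell markers, of which 12 of the 15 listed were tested, ran from 29.8 to 531 CPM in T-ND, from 81.3 to 994 in T-D, from 20.01 to 126 in PT-ND and from 120 to 272 in PT-D. T-D replicate 4, with the highest sum, had 17.4 CPM of Slc4a1, and PT-ND replicate 2, with the lowest sum, had the highest Slc4a1. These are only the 2 extremes of the 14 sums. The globin genes carried most of these sums: Hba-a1 differed by 1.77 in PT-D vs. PT-ND (adjusted p = 0.0788) and Hbb-bs by 1.59 (adjusted p = 0.117). Of the 12 markers tested 9 were higher and 3 lower in PT-D vs. PT-ND (median 1.25), with 0 called by edgeR. Of these markers 5 had an unadjusted p under 0.05, beside 6493 of 22303 genes tested. Epb42, a protein of the red cell membrane skeleton, was among the lower ones, at 0.135 to 1.23 CPM in PT-D and 1.39 to 1.94 CPM in PT-ND with no overlap (log2 fold change -1.38, adjusted p = 0.176), and it differed by -1.69 in PT-D vs. T-ND (adjusted p = 0.134). Hba-a2 was at 0 in 14 libraries, and Hemgn was at 0 in 11. Kidney and red cell transcripts of Slc4a1 are counted together here. The part of blood in the Slc4a1 values was not tested.

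None of the 12 intercalated cell markers was called in the 5 group comparisons. Their summed level ran from 1267 to 1646 CPM in PT-D and from 1311 to 1491 in PT-ND, and from 1239 to 1615 in T-ND and 1406 to 1791 in T-D. Its largest terms were Car2 (mean 607 CPM), Atp6v0a4 (324) and Tfcp2l1 (286), which is also in the principal cell list. Foxi1, the transcription factor that turns on intercalated cell genes including Slc4a1, had an adjusted p under 0.05 in PT-D vs. PT-ND in the other direction (0.81, adjusted p = 0.019), below the fold needed for a call, and its interaction was called (1.19, adjusted p = 0.0413). Rhbg, an ammonia transporter of intercalated cells counted at 29 reads or fewer per library, differed by -1.45 (adjusted p = 0.114) in PT-D vs. PT-ND.

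Slc26a4, the gene of pendrin, which secretes bicarbonate and takes up chloride in type B intercalated cells, rested on 1 library. It lies on chromosome 12 (31568169 to 31610244, minus strand). It was measured at 104, 55.8, 95.3 and 57.9 CPM in T-ND, at 59.9, 49.0, 49.7 and 35.6 CPM in T-D and at 87.4, 51.3 and 59.4 CPM in PT-ND. PT-D replicate 1 had 193 CPM, the highest of the 14, whereas PT-D replicates 2 and 3 had 53.6 and 53.0 CPM, inside the range of T-D. The log2 fold change in PT-D vs. T-D was 1.05 (SE 0.40, adjusted p = 0.156) and came to 0.12 (SE 0.22) without that library, and the interaction went from 1.28 (SE 0.55, adjusted p = 0.16) to 0.38 (SE 0.37). In T-D vs. T-ND Slc26a4 differed by -0.70 (SE 0.23, adjusted p = 0.289).

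Atp6v1b1, which encodes the B1 subunit of the proton pump in intercalated cells (chromosome 6, 83719967 to 83735837, plus strand), averaged 62.8 ± 9.55 CPM in T-ND, 61.3 ± 8.52 in T-D, 71.9 ± 10.8 in PT-ND and 61.8 ± 28.9 in PT-D. Its log2 fold changes lay between -0.22 (PT-D vs. PT-ND, SE 0.27) and 0.20 (PT-ND vs. T-ND, SE 0.16). PT-D replicate 1 was again the highest of the 14, at 94.6 CPM, and PT-D replicate 3 the lowest, at 40.1 CPM.

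**Figure D4:**
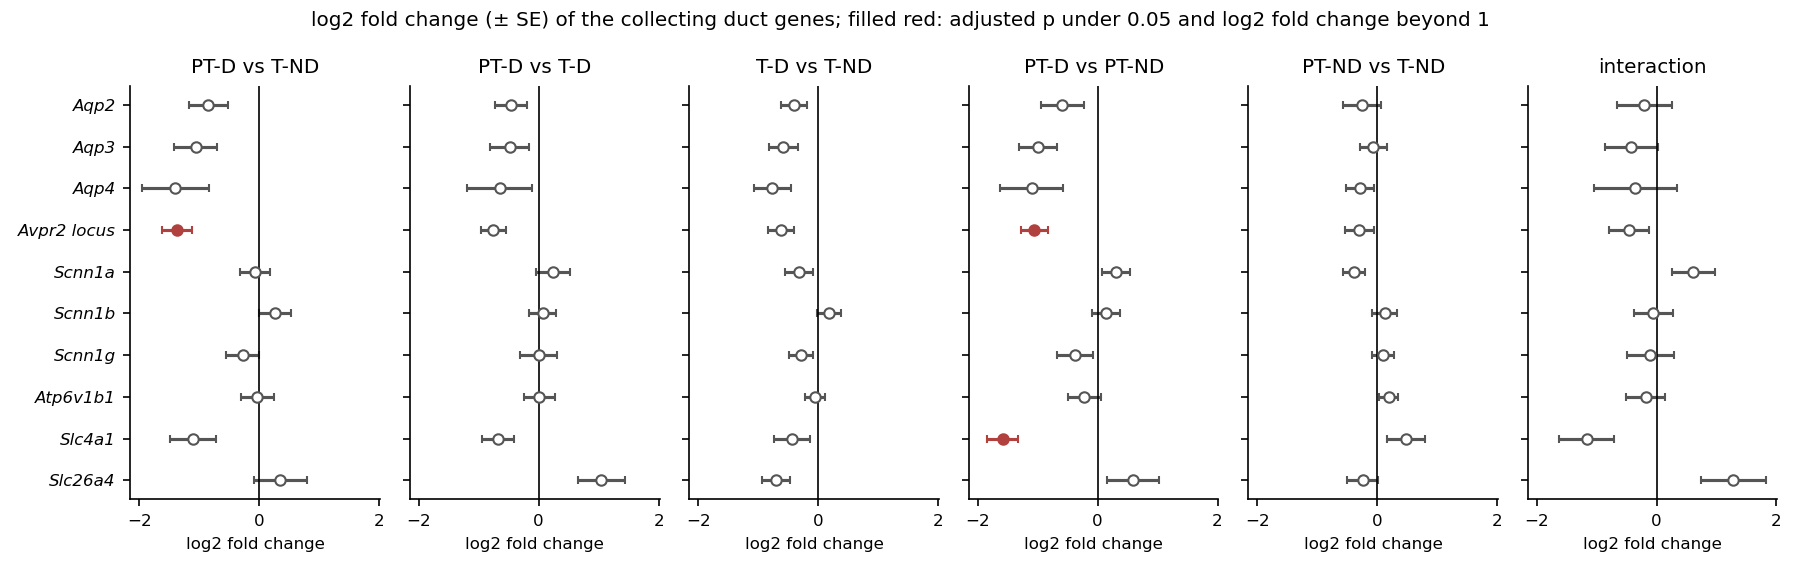
log2 fold change with its SE for 9 members and the Avpr2 locus in 5 comparisons and for the interaction of birth and STZ. Filled red points passed the test; Slc4a1 is red in PT-D vs PT-ND, and the Avpr2 locus in PT-D vs T-ND and PT-D vs PT-ND.

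Set against all genes, the 9 members counted without strand gave 1 call in the 5 group comparisons and the interaction. The comparison PT-D vs. T-ND asks what early birth and STZ did jointly, and there 0 of 9 were called against 1.45% of all genes. Of the 9, 4 had an unadjusted p under 0.05 (Aqp2, Aqp3, Aqp4 and Slc4a1, all lower), beside 5412 of 22310 genes tested. The median log2 fold change was -0.28 against 0.03 over all genes. DESeq2 called Aqp3 and Slc4a1 there. Aqp4 alone did not overlap, being lower, beside 11.2% of genes with every PT-D library below every T-ND library and 12% with every PT-D library above. The effect of preterm birth among diabetic mice is PT-D vs. T-D, where 0 of 9 were called by edgeR and 0 by DESeq2 (0.193% of genes called by edgeR). The 9 had a median of 0.00 against 0.06 over all genes. An unadjusted p under 0.05 was reached by 2 of the 9 (Slc4a1 and Slc26a4), beside 4971 of 22294 genes tested. Slc4a1 was the member with no overlap, beside 10.6% of genes wholly below and 12.4% wholly above.

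The effect of diabetes in term mice is T-D vs. T-ND, where 0 of 9 were called by edgeR and 0 by DESeq2 (0.0673% of genes called by edgeR). Of the 9, 8 had negative log2 fold changes, with a median of -0.40 against -0.02 over all genes. An unadjusted p under 0.05 was reached by 3 of the 9 (Aqp3, Aqp4 and Slc26a4), beside 2621 of 22275 genes tested. None of the 9 was without overlap, beside 3.76% of genes wholly below and 2.9% wholly above. In preterm mice, PT-D vs. PT-ND, 1 of 9 was called by edgeR (4.95% of genes called) and 2 by DESeq2 (Aqp3 and Slc4a1, with 1360 genes called in all), and 3 (Aqp3, Aqp4, Slc4a1) were wholly below, against 15.8% of genes wholly below and 18.7% wholly above, with a median of -0.37 against 0.05. The effect of preterm birth without diabetes, PT-ND vs. T-ND, gave 0 calls by edgeR and 0 by DESeq2, 0 members with p under 0.05 and 0 without overlap. There 0.0809% of genes were called, 5.54% lay wholly below and 5.48% wholly above, and 2379 of 22254 had an unadjusted p under 0.05. The interaction gave 0 calls by edgeR, against 4.45% of genes, and 0 by DESeq2. An unadjusted p under 0.05 in the interaction was reached by 2 of the 9 (Slc4a1 and Slc26a4), beside 5472 of 22339 genes tested. These comparisons share groups and are not independent of each other, and the members were chosen with earlier results of these data known.

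The genes around vasopressin gave no call by edgeR among 13 listed genes in any of the 6 tests. In PT-D vs. T-ND 5 were higher and 8 lower, with a median of -0.09. There 4 of the 13 had an unadjusted p under 0.05, beside 5412 of 22310 genes tested. Slc14a1, a urea transporter, differed most, by -2.19 (adjusted p = 0.0861), at 179 reads or fewer per library, and Ptger3, a prostaglandin receptor that opposes vasopressin, by -1.56 (adjusted p = 0.0698). In PT-D vs. PT-ND Ptger3 had an adjusted p of 0.0343 at -0.97, and Creb1, a transcription factor activated by cyclic AMP, one of 0.0121 at 0.79, both below the fold needed for a call. Adcy6, an adenylyl cyclase of the tubule, differed by -0.62 in T-D vs. T-ND (adjusted p = 0.283), and by -0.46 in PT-ND vs. T-ND (adjusted p = 0.373). Of these genes Adcy3, Gnas and Ptger4 kept less than 50% of their summed reads in the unstranded column.

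The 6 osmolyte and hypertonicity genes, which load cells of the medulla with protective solutes, were alike in sign in 4 of the 6 tests. All 6 had negative log2 fold changes in T-D vs. T-ND (median -0.56), all 6 positive ones in PT-D vs. PT-ND (median 0.22), and in PT-ND vs. T-ND all 6 were negative (median -0.56), with 0 called in each. The interaction was positive for 6 of 6 (median 0.83 against 0.07 over all genes), and 1 was called, Hspa4l, a chaperone induced by high salt (1.19, adjusted p = 0.0262). Nfat5, the transcription factor of this response, differed by 0.67 in PT-D vs. PT-ND (adjusted p = 0.037) and by 0.52 in PT-D vs. T-ND (adjusted p = 0.0649). Slc6a6, the taurine transporter, differed by -0.75 in T-D vs. T-ND (adjusted p = 0.223).

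Of the 16 aldosterone and sodium handling genes, 1 was called, and in 1 comparison. Fxyd4, a regulator of the sodium pump in principal cells, was lower in PT-D vs. PT-ND (-1.12, adjusted p = 0.0487), and differed by -1.16 in PT-D vs. T-ND (adjusted p = 0.0612). Prss8, a protease that activates ENaC, differed by -0.74 in PT-D vs. T-ND (adjusted p = 0.0768), and Sgk1, the kinase through which aldosterone keeps ENaC at the membrane, by -0.57 in PT-D vs. T-D (adjusted p = 0.0975). Hsd11b2, which shields the mineralocorticoid receptor from glucocorticoids, differed by -0.58 in T-D vs. T-ND (adjusted p = 0.24). The list's median was -0.04 in PT-D vs. T-ND and -0.10 in PT-D vs. PT-ND. The summed level of the 12 principal cell markers ran from 926 to 1194 CPM in PT-D, 1023 to 1157 in PT-ND, 960 to 1060 in T-D and 1094 to 1285 in T-ND. Its largest term, Tfcp2l1 (mean 286 CPM), is also in the intercalated cell list, so the sum does not measure principal cells alone. Gata2 of the principal cell list, a transcription factor of principal cells, had a called interaction (1.33, adjusted p = 0.0374). Elf5 of that list differed by -1.75 in PT-D vs. T-ND (adjusted p = 0.0642).

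Among the 18 intercalated cell acid and base transport genes 0 were called in the 6 tests by edgeR, with an unadjusted p under 0.05 for 1 to 4 of them. Over all genes tested, that p was reached by 2379 of 22254 (PT-ND vs. T-ND, the fewest) to 6493 of 22303 (PT-D vs. PT-ND, the most). Bsnd, the barttin subunit of chloride channels, came nearest in PT-D vs. T-ND (-1.34, adjusted p = 0.053) and T-D vs. T-ND (-0.97, adjusted p = 0.0991). Slc12a2, a sodium, potassium and chloride cotransporter, had an adjusted p of 0.0164 at 0.91 in PT-D vs. PT-ND, and Slc4a9, a type B cell bicarbonate transporter, differed by 0.95 in PT-D vs. T-D (adjusted p = 0.166). Of the 16 proton pump subunits used by all cells, 14 were lower in PT-D vs. T-ND (median -0.21), 14 in PT-D vs. T-D (median -0.44) and 13 in PT-D vs. PT-ND (median -0.18), with 0 called, and 11 were higher in T-D vs. T-ND (median 0.22). T-D replicate 4 had the highest summed level of these subunits, 4040 CPM, beside 3028, 3322 and 3678 CPM in T-D replicates 1, 2 and 3. That library also had the lowest TMM factor (0.839) and the fewest genes detected (19589). Atp6v1f, a subunit of the catalytic part, had an adjusted p of 0.0489 at -0.70 in PT-D vs. PT-ND and a called interaction (-1.16, adjusted p = 0.0413).

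**Figure D5:**
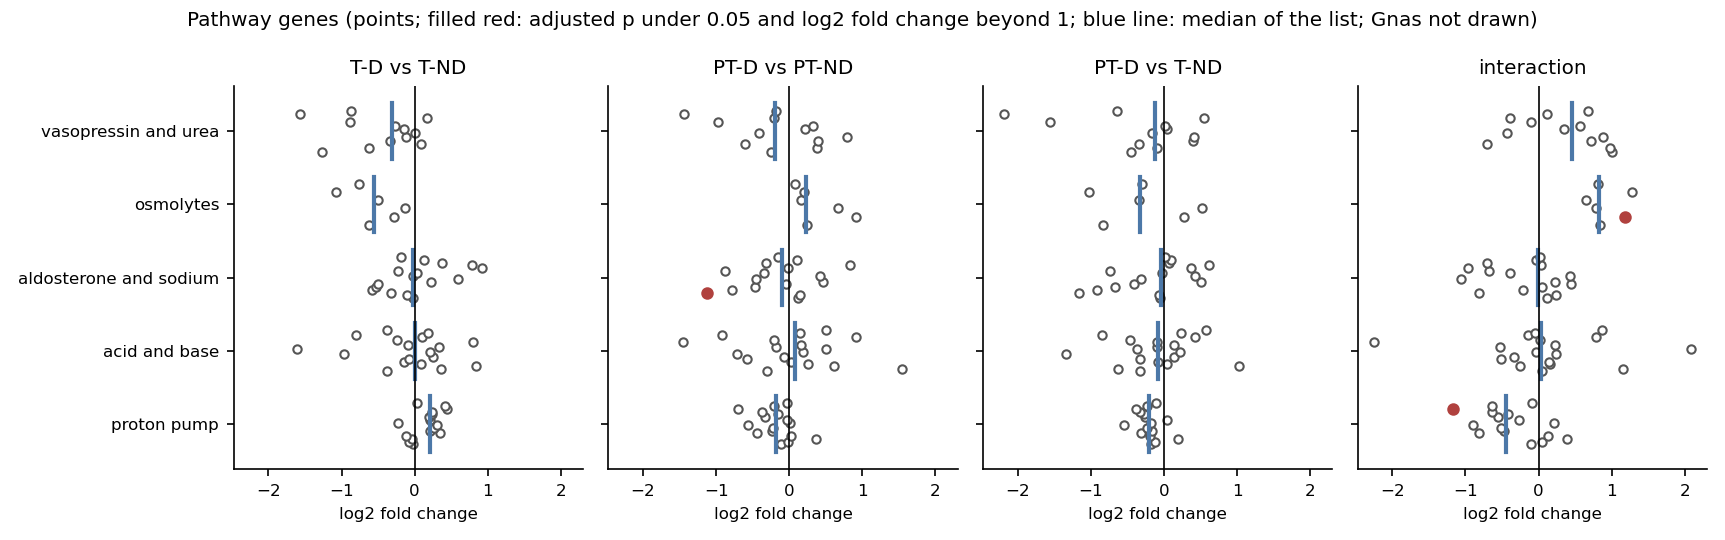
log2 fold change of the genes of 5 pathway lists in 3 comparisons and for the interaction. Points are genes, blue lines list medians and filled red points passed the test (Fxyd4 in PT-D vs PT-ND, Hspa4l and Atp6v1f for the interaction); the osmolyte genes lie to the left in T-D vs T-ND and to the right in PT-D vs PT-ND.

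Over the 14 libraries, the genes most like each member were found by the Pearson correlation of log2 CPM among 12154 genes, as a description that group differences, name suffix and tissue make-up all enter. Aqp3 was most like Hsd11b2 (r = 0.932), Esrrb (0.925) and Btc (0.917), and Aqp2 most like Mras (0.933), Nccrp1 (0.902) and Aldoc (0.867). Aqp4 was most like Slc22a13 (0.97), Mep1a (0.967) and Slc6a18 (0.962), which are genes of the proximal tubule. Slc26a4 was most like Slc4a9 (0.863), Bag4 (0.849) and Slc25a45 (0.821), and Slc4a1 most like Arhgef19 (0.91), 2310033P09Rik (0.908) and Kat5 (0.874). For the channel subunits these were Slc4a3 (0.912) and Vegfa (0.865) for Scnn1a, Ybx2 (0.873), Cyp2j6 (0.856) and Pank4 (0.84) for Scnn1b, and Tcf3 (0.907), Padi2 (0.878) and Syn2 (0.875) for Scnn1g. For Atp6v1b1 they were Slc41a3 (0.907), Emb (0.899) and Tcea2 (0.834).

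Other tissues in the sample varied too. Of the 8 urothelial markers, whose cells also make Aqp3, 1 was called, Krt20 higher in PT-D vs. PT-ND (2.32, adjusted p = 0.0329), where 6 of the 8 were lower (median -0.75), and Upk3a differed by -2.85 in PT-D vs. T-D (adjusted p = 0.0664). Their summed level was 5.82 to 28.6 CPM in PT-D, 6.65 to 49.3 in PT-ND, 32.6 to 68.9 in T-D and 26.6 to 63.0 in T-ND, and PT-D replicate 1, the PT-D library with the most Aqp3, had the least. Of the loop of Henle and distal tubule markers Umod (uromodulin) was called lower in PT-D vs. T-ND (-1.39, adjusted p = 0.0325), and in PT-D vs. PT-ND Cldn10 was lower (-1.55, adjusted p = 0.00214) and Trpv5 higher (1.71, adjusted p = 0.0017). The summed adrenal markers stayed between 2.37 and 5.5 CPM, and the summed fat markers ran from 47.2 to 441 CPM with no fat marker called. The part of these cells in the values of the members was not tested.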

How the data were processed

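Per the labels, poly(A) RNA from the whole kidney of each mouse was made into un-stranded libraries. The authors aligned reads with STAR to GRCm39 and deposited, per gene, whole-number read counts in 3 columns (unstranded and each strand), with no normalization. The 10 genes and all lists were chosen with earlier results of these data known. Identifiers were matched without version to GENCODE M39 (the study counted on release M36). A gene needed more than 10 counts over the 14 libraries, which left 22339 with all 10 members among them. For each comparison edgeR was run on the libraries of those groups alone, with version 4.0.16 (TMM factors, quasi-likelihood F test, 2-sided) in R 4.3.3, and the interaction of birth and STZ on all 14. DESeq2 1.42.0 was an alternative, as were other normalizations, filters, covariates and left-out libraries. Every p measures the spread between single mice. Avpr2 was read from the summed strand columns, a choice made after seeing the data. In data simulated for PT-D vs. PT-ND on 22211 genes, 37% of 100 genes changed 2-fold and 98% of 100 changed 4-fold were called, and for PT-D vs. T-ND on 22242 genes 40% and 93%. Of the genes changed 2-fold, which is the fold threshold itself, 56% and 49% had an adjusted p under 0.05.

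The text names all members and, from each list and comparison, the called genes (up to 3 per direction) or, where none was called, genes from the 2 with the smallest p, and the 3 genes most correlated with each member. Some results that this rule covers are not reported here. Gnas, Kap, Epb42, the globin genes, Hemgn and some values of Foxi1, Rhbg, Prss8 and Hsd11b2 were chosen after their values were seen. Multimapping reads were 9.07% to 14.9% of reads, and ambiguous ones 6.86% to 8.09% of uniquely mapped reads. No pair of libraries was near identical. Promoter letters came from the GRCm39 genome.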

Additional observations from a re-analysis of the deposited data

Results flagged for a closer look

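The test of whether the STZ effect differed between preterm and term mice (edgeR, all 14 libraries) gave an adjusted p under 0.05 for 5 of the named pathway and marker genes and for 0 of the 9 members counted without strand. Over all genes it gave an adjusted p under 0.05 for 1392 of 22339, so these 5 are not shown to stand out. The interaction log2 fold change was 1.19 for Hspa4l (adjusted p = 0.0262), 1.33 for Gata2 (adjusted p = 0.0374), 1.19 for Foxi1 (adjusted p = 0.0413), 0.89 for Creb1 (adjusted p = 0.022) and -1.16 for Atp6v1f (adjusted p = 0.0413). In all 20 sets of 4 libraries looked at (members and the Avpr2 locus in T-ND and T-D), 0 held a library far enough from the others to stand out; groups of 3 were not looked at.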

How the results depend on the processing

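Slc4a1 in PT-D vs. PT-ND remained called under every alternative tried. The count of members called was 0 in PT-D vs. T-ND with edgeR, 2 with DESeq2 and 1 with the strand columns summed, and 0 to 1 leaving out each library. In PT-D vs. T-D it was 1 with no filter on low counts (Slc26a4, 1.05). In PT-D vs. PT-ND it was 2 with DESeq2, no filter, the suffix covariate, summed columns and the libraries without suffix, and 1 to 2 leaving out each library. The cause of these shifts was not tested. Same-numbered libraries did not deviate together (19 pairs, median correlation -0.0664, against 0.013 for 54 other pairs), so the replicate numbers were not taken as pairs. With the replicate block 3 members were called in PT-D vs. PT-ND (Aqp3, Aqp4 and Slc4a1), the Avpr2 locus in PT-D vs. T-ND lost its call (-1.38), and the genes called went from 1105 to 1290 in PT-D vs. PT-ND, from 323 to 73 in PT-D vs. T-ND, from 43 to 83 in PT-D vs. T-D, from 18 to 6 in PT-ND vs. T-ND and from 993 to 563 for the interaction.

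Counts over all genes depended on the tool. DESeq2 called 947 in PT-D vs. T-ND, 655 in PT-D vs. T-D, 293 in T-D vs. T-ND (15 with edgeR), 169 in PT-ND vs. T-ND and 1645 for the interaction. With no filter these were 645, 657, 109 and 83, and 1289 for the interaction. Without the fold threshold 616 were called in PT-D vs. T-ND and 2881 in PT-D vs. PT-ND (1105 with it). One fit of all 14 libraries gave 396 in PT-D vs. T-D and 58 in T-D vs. T-ND. The suffix covariate gave 23 in PT-D vs. T-D and 45 in PT-ND vs. T-ND. The filter of edgeR gave 22 and 8 there, and the summed columns 11 in PT-ND vs. T-ND. The libraries without suffix gave 34, 16, 1, 610, 11 and 10 in the order PT-D vs. T-ND, PT-D vs. T-D, T-D vs. T-ND, PT-D vs. PT-ND, PT-ND vs. T-ND and interaction. Leaving out each library gave 28 to 1070, 26 to 105, 2 to 290, 594 to 1419, 1 to 96 and 76 to 1241 in that order.

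Of the log2 fold changes of single genes under the alternatives, 977 kept direction and side of the threshold, 12 gained a call, 12 lost one and 73 changed sign. The values that changed sign had none called among them, and are given next. With the replicate block the log2 fold change was -0.0101 for Slc26a4 in PT-D vs. T-ND and -0.00318 for Scnn1a, -0.036 for Scnn1b, -0.28 for Scnn1g and -0.052 for Atp6v1b1 in PT-D vs. T-D. Among the libraries without the name suffix the log2 fold change was -0.39 for Scnn1b and -0.54 for Slc26a4 in PT-D vs. T-ND, 0.0365 for Aqp4, -0.00983 for Scnn1a, -0.23 for Scnn1b, -0.39 for Scnn1g and -0.37 for Atp6v1b1 in PT-D vs. T-D, 0.0636 for Aqp2 and -0.16 for Scnn1b in T-D vs. T-ND, -0.29 for Scnn1b and -0.46 for Slc26a4 in PT-D vs. PT-ND, 0.20 for Aqp3, -0.0789 for Scnn1b and -0.0122 for Scnn1g in PT-ND vs. T-ND and 0.11 for Aqp4 in the interaction. With DESeq2 the log2 fold change was -0.022 for Scnn1g and -0.0126 for Atp6v1b1 in PT-D vs. T-D. With RLE normalization the log2 fold change was -0.0234 for Scnn1g and -0.0127 for Atp6v1b1 in PT-D vs. T-D. With upper quartile normalization the log2 fold change was -0.0338 for Scnn1g and -0.0259 for Atp6v1b1 in PT-D vs. T-D. With edgeR's own filter the log2 fold change was -0.00588 for Scnn1g in PT-D vs. T-D. With all 14 libraries in one fit the log2 fold change was -0.0021 for Scnn1g in PT-D vs. T-D. With the name suffix as a covariate the log2 fold change was -0.0363 for Scnn1b, -0.15 for Scnn1g and -0.13 for Atp6v1b1 in PT-D vs. T-D and 0.0652 for Aqp3 in PT-ND vs. T-ND. Leaving out each library gave -0.43 to 0.13 for Scnn1a, -0.48 to 0.21 for Atp6v1b1, -0.0943 to 0.44 for Scnn1b and -0.56 to 0.66 for Slc26a4 in PT-D vs. T-ND, -0.45 to 0.26 for Atp6v1b1, -0.48 to 0.27 for Scnn1g, -0.12 to 0.44 for Scnn1a and -0.30 to 0.25 for Scnn1b in PT-D vs. T-D, -0.15 to 0.021 for Atp6v1b1 in T-D vs. T-ND, -0.0323 to 0.51 for Scnn1a, -0.21 to 0.32 for Scnn1b, -0.31 to 0.90 for Slc26a4 and -0.66 to 0.0129 for Atp6v1b1 in PT-D vs. PT-ND, -0.23 to 0.10 for Aqp3, -0.0267 to 0.24 for Scnn1b and -0.12 to 0.25 for Scnn1g in PT-ND vs. T-ND and -0.40 to 0.12 for Scnn1b, -0.57 to 0.17 for Scnn1g, -0.46 to 0.28 for Aqp2, -0.86 to 0.14 for Aqp4 and -0.63 to 0.0707 for Atp6v1b1 in the interaction. In the simulated data for PT-D vs. T-ND and PT-D vs. PT-ND most genes changed 2-fold were not called. A 2-fold change lies at the fold threshold itself, so many of them would miss it at any power. Of these genes 49% and 56% had an adjusted p under 0.05 by edgeR. A missed threshold does not show that levels were alike.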
